A study of Mus musculus with 26 samples.

Results

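Mouse embryonic stem cells (ESCs) of the R1 line that the sample labels give as overexpressing Dux R70A were compared with untreated ESCs of the same line. The comparison rests on 4 of the 26 RNA-seq libraries of the series, chosen by their sample labels: 2 of untreated ESCs and 2 of Dux R70A, in which doxycycline (4 µg/mL) had been present for 24 h. The 2 libraries of DMSO-treated ESCs, whose labels name no dose or time, were used to mark which changes also held against another control. The 2 libraries of Dux OE, in which wild-type Dux was induced with the same dose for the same time, were used where the mutant was set against the wild-type protein. All of these cells carry the wild-type genotype in the labels and were kept in medium with LIF on gelatin, and poly(A) RNA was sequenced. For the counts of the Dux gene, 2 libraries of cells labelled as overexpressing Zscan4, with the same doxycycline dose and time, are also given. The study set out to ask what DUX does to the genome through phase separation. It describes R70A, an arginine to alanine change in a disordered segment, as a mutant that does not form condensates. In the paper R70A still bound the MERVL retrotransposon motif in a gel shift assay, while its occupancy of MERVL elements in cells was reduced. Uninduced cells of the Dux R70A line were not analysed here, so the effects of the mutant protein, of doxycycline and of the line itself cannot be told apart. The labels give neither the promoter nor the number of clones behind the transgene, and they do not say whether replicates came from separate cultures. The p-values thus measure a spread between replicate libraries, which was estimated over all 26 libraries of the series together.

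Dux is a double homeobox transcription factor that is switched on at zygotic genome activation and drives the genes of the 2-cell embryo (2C genes), among them the Zscan4 and Usp17l families and the Tdpoz genes. In ESC cultures a small and shifting fraction of cells passes through a 2C-like state in which these genes are on. ESCs in LIF hold pluripotency with Oct4 (Pou5f1), Sox2 and Nanog, while LIF and Wnt signals keep Myc and Gbx2 high and FGF acting through ERK pushes cells toward exit, with Egr1 and Fos among its fast response genes.

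The 6 libraries of Dux R70A, ESC and DMSO held between 15058482 and 19453495 counted reads, so that the 3 counts used as the floor of detection stood for 0.161 to 0.200 CPM, the unit of level used throughout (counts scaled to a common library size with TMM factors, not to gene length). Mitochondrially encoded transcripts took 2.19 to 3.16% of the reads. Expression of the mutant could not be checked in these counts, so that Dux R70A below names the libraries with that label. Duxf3, the gene of the Dux locus on chromosome 10 (58229979 to 58232675), had 0 and 0 counts in Dux R70A, 3 and 0 in ESCs and 1 and 0 in DMSO, against 55 and 48 in Dux OE and 27 and 17 in cells labelled as overexpressing Zscan4. No separate row for a transgene was found in the table. AW822073 and Gm4981, the other Dux copies tested, had at most 2 counts in any Dux R70A library. The Dux R70A libraries carried the ESC markers. All 8 of 8 (Pou5f1, Sox2, Nanog, Zfp42, Esrrb, Sall4, Dppa5a and Tdgf1) were above the floor. They summed to 5547 and 5319 CPM, next to 5843 and 5883 CPM in ESCs and 8019 and 8130 CPM in DMSO. Fibroblast markers summed to 49.0 and 51.6 CPM in Dux R70A against 37.2 and 36.7 CPM in ESCs and 55.5 and 56.0 CPM in DMSO, so they lay above the first control and below the second, with 5 of 10 at 0 counts in both Dux R70A libraries. The neural markers summed to 109 and 91.2 CPM in Dux R70A against 318 and 318 CPM in ESCs and 143 and 156 CPM in DMSO. Primitive endoderm markers summed to 8.91 and 8.85 CPM, against 7.04 and 6.93 in ESCs and 10.7 and 8.83 in DMSO. Trophectoderm markers summed to 5.26 and 7.28 CPM, against 6.04 and 6.60 in ESCs and 11.6 and 14.2 in DMSO. Their part in the results was not tested.

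With Dux R70A, Egr1, the p53 targets Mdm2 and Ephx1, the antigen transporter gene Tap1 and 5 collagen genes were higher than in both controls, and 9 of 40 tested 2C genes, Myc, Id3, Ccnd1, Ccnd2 and Cdk6 were lower. Of 20953 genes tested, 2143 were higher (10.2%) and 1407 lower (6.72%) in Dux R70A than in ESCs, 3550 in all (16.9%). A gene was called where the edgeR adjusted p was under 0.05 and the log2 fold change was 1 or more in size. Against DMSO, 1287 genes were higher (6.14%) and 610 lower (2.91%), 9.05% in all. Of the 2143 genes higher than in ESCs, 504 (23.5%) were also higher than in DMSO, 1613 (75.3%) were not called against DMSO and 26 (1.21%) were lower than in DMSO. Of the 1407 lower genes, 183 (13%) were also lower than in DMSO, 1176 (83.6%) were not called and 48 (3.41%) were higher than in DMSO. The changes held against both controls thus came to 504 higher (2.41% of those tested) and 183 lower genes (0.873%), 687 in all (3.28%). Of the genes called, 60.4% were higher against ESCs and 67.8% against DMSO. With scaling by library size alone, which raised the median of all genes by 0.20 and 0.15 on the log2 scale, these shares were 77.6% and 81.0%. Then 791 genes were higher and 103 lower against both controls.

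The 2 controls also differed from each other. DMSO-treated cells had 1743 genes higher (8.32%) and 1658 lower (7.91%) than untreated ESCs (16.2% of genes tested). The comparisons of Dux R70A and of DMSO with ESCs share the ESC libraries, so their values are given side by side and no overlap between them is read. A further 735 genes were higher and 401 lower in Dux R70A against DMSO alone. Most gene groups below are therefore given with calls against DMSO or against both controls beside those against ESCs.

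**Figure D1:**
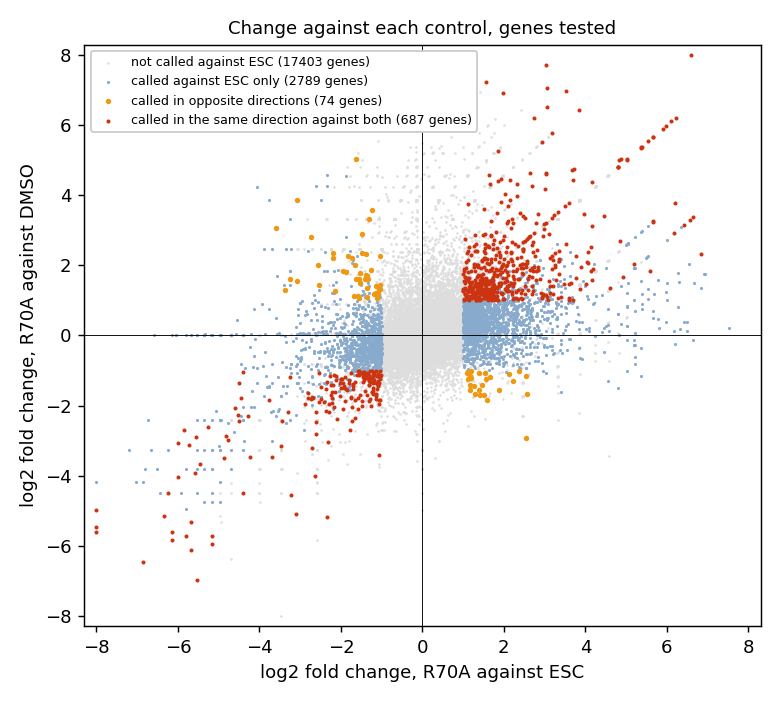
Log2 fold change of each tested gene in Dux R70A against ESCs (horizontal axis) and against DMSO (vertical axis), with values past 8 drawn at 8; both axes share the Dux R70A libraries. The 687 genes called in the same direction against both controls lie in the upper right and lower left corners, and most genes called against ESCs lie near the horizontal line at 0.

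Egr1, an immediate early transcription factor of the ERK pathway, stood at 75.2 and 77.7 CPM in Dux R70A, 8.72 and 8.73 in ESCs, 34.4 and 32.3 in DMSO and 3.79 and 4.73 in Dux OE. Both Dux R70A libraries lay above every control library, by 8.76-fold over ESCs (log2 fold change 3.13 ± 0.19 SE, edgeR adjusted p = 1.0e-12) and by 1.20 on the log2 scale over DMSO (edgeR adjusted p = 2.6e-06). Junb, an AP-1 subunit, was at 62.8 and 64.0 CPM against 22.5 and 22.5 in ESCs, and Fos, its partner in AP-1, at 6.45 and 8.54 CPM against 2.06 and 1.53. Junb and Fos rose against ESCs (log2 fold changes 1.49 and 2.05) and were not called against DMSO (0.88 and 0.34). Egr1, Junb and Fos were also higher than in Dux OE, by 4.16, 2.25 and 1.23 on the log2 scale. Of the 24 tested genes of the FGF-ERK list, 6 were higher and 2 lower than in ESCs. These are 25% and 8.33% of the list, and the median log2 fold change was -0.04 beside 0.00 over all genes tested. With scaling by library size alone both medians were 0.20. Against both controls 1 was higher (Egr1) and 2 were lower (Myc and Ccnd1). Spry4, an ERK feedback inhibitor, was lower than in DMSO, at 175 and 163 CPM against 374 and 384, while ESCs stood at 246 and 229 CPM; it was chosen after its values were seen.

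The 10 genes that rose most against both controls under the fixed rule were Oprk1, Prkcb, Dll1, Kif17, Unc5a, Hrh3, Lrrn1, Plat, Scara5 and Egr1, out of 160 eligible. They were chosen for their calls against both controls and for both Dux R70A libraries lying above all 4 control libraries. That separation in all 10 was set by the rule and is no result (19.8% of all genes tested had it). Oprk1 encodes the kappa opioid receptor, Hrh3 a histamine receptor, Unc5a a netrin receptor, Kif17 a kinesin motor and Prkcb a protein kinase C. Dll1, a Notch ligand (chromosome 17, 15367354 to 15376872, minus strand), was at 6.93 and 5.4 CPM in Dux R70A, 0.436 and 0.533 in ESCs, 2.10 and 2.25 in DMSO and 2.55 and 1.96 in Dux OE. The Dux R70A libraries were the highest of the 8 and the ESC libraries the lowest. It was 12.7-fold higher than in ESCs (log2 fold change 3.66 ± 0.30 SE, edgeR adjusted p = 1.7e-10). Prkcb was at 11.4 and 12.2 CPM against 0.623 and 1.0 in ESCs and 5.11 and 4.33 in DMSO, an increase of 3.86 on the log2 scale over ESCs. Scara5, a scavenger receptor for ferritin, was at 4.57 and 4.58 CPM against 0.498 and 0.533 in ESCs and 0.964 and 0.987 in DMSO. Plat, tissue plasminogen activator, was at 6.50 and 5.53 CPM against 0.810 and 0.467 in ESCs and 2.27 and 2.25 in DMSO. Of the 10 genes, all but Scara5 were also called higher in DMSO than in ESCs, and all but Lrrn1 and Plat were called higher than in Dux OE. The call against DMSO rested on single libraries for 4 of them. It was lost for Kif17 without Dux R70A replicate 1 (log2 fold change 0.80) or either DMSO replicate (1.12 and 1.04), for Unc5a without DMSO replicate 1 (0.65), for Hrh3 without Dux R70A replicate 1 (1.41) or DMSO replicate 2 (1.37), and for Lrrn1 without Dux R70A replicate 2 (0.89) or DMSO replicate 1 (0.70).

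Some p53 target genes were higher with both controls. Of 30 tested, 7 were higher and 1 lower than in ESCs (Tigar; median log2 fold change 0.38), 9 were higher and none lower than in DMSO (median 0.52 beside 0.03 over all genes), and 5 were higher against both. The shares higher were 23.3%, 30% and 16.7% of the list, beside 10.2%, 6.14% and 2.41% of all genes tested. Scaled by library size alone, 11 were higher and none lower than in ESCs, as Tigar fell under the fold line (log2 fold change -0.93), and 7 were higher against both. Mdm2, the ubiquitin ligase that restrains p53, was at 263 and 301 CPM in Dux R70A, 115 and 121 in ESCs, 71.3 and 65.5 in DMSO and 136 and 145 in Dux OE. It was the 1 gene of the 5 past the call lines against Dux OE as well (log2 fold change 1.0, edgeR adjusted p = 1.8e-09). Ephx1, an epoxide hydrolase, was at 65.7 and 59.1 CPM against 18.5 and 20.2 in ESCs and 14.1 and 15.1 in DMSO (log2 fold changes 1.69 and 2.10). Polk, a translesion DNA polymerase, was at 41.6 and 44.4 CPM against 17.7 and 14.7 in ESCs and 13.6 and 14.8 in DMSO. The other members raised against both controls were Trp53inp1, at 418 and 505 CPM against 225 and 226 in ESCs, and the death receptor Fas, which stayed under 1 CPM in each of these libraries. Trp53inp1 was under the fold line against ESCs without Dux R70A replicate 2 (log2 fold change 0.90), and Fas lost its call against ESCs without ESC replicate 2 (1.30) and against DMSO without DMSO replicate 1 (1.26). Cdkn1a, the p21 gene, was at 121 and 104 CPM against 64.5 and 59.3 in ESCs, a log2 fold change of 0.87 that was significant (edgeR adjusted p = 1.8e-06) and under the fold line. Trp53 itself was at 379 and 330 CPM, next to 664 and 667 in ESCs and 357 and 379 in DMSO. Mdm2, Trp53inp1, Cdkn1a and Trp53 were chosen after their values were seen. In Dux OE, Ephx1 was at 38.7 and 44.3 CPM and Polk at 22.8 and 20.3 CPM, between ESCs and Dux R70A.

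Some genes of antigen processing and MHC class I were higher in Dux R70A than in both controls. Of 28 tested members, 7 were higher and 2 lower than in ESCs (median 0.54) and 5 higher and 1 lower than in DMSO. Higher against both were 4, Tap1, Tap2, H2-M3 and B2m, the last of these chosen after its values were seen. The shares higher were 25% against ESCs, 17.9% against DMSO and 14.3% against both, beside 10.2%, 6.14% and 2.41% of all genes. Tap1 and Tap2 encode the subunits of the transporter that carries peptides to MHC class I molecules. Tap1 was at 10.9 and 9.67 CPM in Dux R70A, 1.49 and 1.67 in ESCs, 2.33 and 4.06 in DMSO and 3.65 and 4.53 in Dux OE. It was 6.49-fold higher than in ESCs (log2 fold change 2.70 ± 0.21 SE, edgeR adjusted p = 6.8e-11). Tap2 had 86 counts in the Dux R70A libraries together and 3 in the ESC libraries, a ratio of 25.8 (95% counting interval 8.53 to 127). The DMSO libraries had 35 counts of Tap2, itself a ratio of 10.1 to ESCs (95% counting interval 3.18 to 51.3). B2m, the invariant light chain of MHC class I, was at 22.3 and 21.1 CPM against 8.97 and 8.20 in ESCs and 5.28 and 5.43 in DMSO. The heavy chain genes H2-K1 and H2-Q7, the latter named by the rule and not on the list, rose against ESCs alone. H2-K1 was at 33.6 and 28.6 CPM against 7.72 and 7.20 in ESCs and 35.1 and 34.5 in DMSO. H2-Q7 was at 10.05 and 11.8 CPM against 0.872 and 1.33 in ESCs and 8.23 and 6.80 in DMSO. Counts of such closely related H2 genes can be split between copies and are uncertain. Against DMSO, the call of Tap2 was lost without Dux R70A replicate 1 (log2 fold change 1.36) or DMSO replicate 1 (0.98), and that of H2-M3 without DMSO replicate 1 (1.01). The 2 members lower than in ESCs were an RNA sensor and a transcription factor of the interferon response. Ddx58, the RNA sensor RIG-I, was at 14.8 and 17.4 CPM against 42.9 and 44.3 in ESCs, and Irf1 was at 13.2 and 13.2 CPM against 30.5 and 29.3. Neither was called against DMSO, and Irf1 was under the fold line against ESCs with scaling by library size alone (log2 fold change -0.95).

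Tap1 is transcribed away from Psmb9, which encodes a subunit of the immunoproteasome, and their RefSeq start sites lie 226 bases apart on chromosome 17, so the stretch below serves both. Psmb9 was at 4.14 and 3.96 CPM in Dux R70A, 2.06 and 2.13 in ESCs and 3.01 and 2.52 in DMSO, a log2 fold change of 0.95 against ESCs that was under the fold line. The 250 bases before the Tap1 start (RefSeq, GRCm38.p6, chr17:34187306-34187555, plus strand) are printed with the GC box, GGGCGG on either strand, in capitals.
Tap1: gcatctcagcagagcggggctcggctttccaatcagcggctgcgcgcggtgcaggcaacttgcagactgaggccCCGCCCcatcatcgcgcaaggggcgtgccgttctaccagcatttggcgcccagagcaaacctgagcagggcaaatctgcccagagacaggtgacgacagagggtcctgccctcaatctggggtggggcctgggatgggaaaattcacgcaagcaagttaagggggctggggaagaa
It holds 1 GC box, a hexamer found in 58.7% of the windows of tested genes and 32.7% of all 32851 windows. A core of the interferon response element, GAAA and again GAAA after any NN, was absent from the Tap1 window and present for 7 of the 23 MHC and interferon genes with a window (30.4%), beside 2.96% of tested genes.

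Some collagen genes were higher in Dux R70A. Of 41 tested, 10 were higher and 1 lower than in ESCs (median 0.71), 7 higher and none lower than in DMSO (median 0.79), and 5 higher against both (Col23a1, Col20a1, Col8a2, Col4a5 and Col25a1). The shares higher were 24.4%, 17.1% and 12.2%, beside 10.2%, 6.14% and 2.41% of all genes, of whose calls against ESCs 60.4% were higher. Scaled by library size alone, 12 collagen genes were higher than in DMSO. Col23a1, a membrane-bound collagen, was at 3.33 and 3.33 CPM in Dux R70A against 0.249 and 0.400 in ESCs, 0.851 and 0.658 in DMSO and 0.656 and 0.879 in Dux OE. Col8a2 was at 2.90 and 2.64 CPM against 0.561 and 0.267 in ESCs, 1.47 and 0.823 in DMSO and 0.365 and 0.0676 in Dux OE. Against DMSO, the call of Col8a2 was lost without Dux R70A replicate 1 (log2 fold change 1.20) or DMSO replicate 2 (0.91), that of Col20a1 without Dux R70A replicate 2 (1.05) or either DMSO replicate (1.15 and 1.21), and that of Col25a1 without either Dux R70A replicate (1.60 and 1.65) or DMSO replicate 1 (1.11). Col25a1 also lost its call against ESCs without Dux R70A replicate 1 (1.68) or ESC replicate 2 (1.12). These are low levels, and the more abundant basement membrane chain Col4a2, at 71.0 and 61.9 CPM against 25.7 and 26.3 in ESCs, was not called against DMSO (38.3 and 43.9 CPM). Col6a5 fell against ESCs, at 1.34 and 1.88 CPM against 6.98 and 7.07, with DMSO at 1.82 and 1.26 CPM and no call there. Of 22 mesenchymal genes tested, 1 was higher (4.55%) and 2 were lower (9.09%) than in ESCs, beside 10.2% and 6.72% of all genes. Against DMSO 4 were higher (18.2%) and 2 lower (9.09%), beside 6.14% and 2.91%. Against both controls 1 was called in each direction (4.55% each, beside 2.41% and 0.873%). The lower one was Vim, at 95.3 and 88.6 CPM against 210 and 217 in ESCs and 295 and 296 in DMSO. Vim was under the fold line against ESCs when scaled by library size alone (log2 fold change -0.98). Under that scaling 2 mesenchymal genes were higher and none was lower than in both controls.

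Of 18 neural lineage genes, 5 were higher and 2 lower than in ESCs, and Dll1 and Neurod1 were higher against both controls. These are 27.8% higher, 11.1% lower and 11.1% higher against both, beside 10.2%, 6.72% and 2.41% of all genes. Neurod1, a proneural factor, was at 5.91 and 7.22 CPM in Dux R70A and between 1.42 and 1.65 CPM in the 4 control libraries (log2 fold changes 2.11 and 2.09). Tubb3, a neuronal tubulin, fell from 293 and 294 CPM in ESCs to 84.2 and 66.1 CPM, with DMSO at 105 and 119 CPM and no call against it. Epithelial adhesion genes had 7 members higher and 3 lower than in ESCs of 24 tested (29.2% and 12.5%), and 1 (4.17%) higher against both. This was Cldn6, a claudin of early embryonic epithelia (20.1 and 22.2 CPM against 3.99 and 4.27 in ESCs and 8.74 and 8.28 in DMSO). Germline and meiosis genes had 7 higher and 3 lower of 29 (24.1% and 10.3%), and 1 (3.45%) higher against both. Sycp3 and Meiob, which act at meiotic chromosomes, were at 8.49 and 7.66 CPM and at 2.95 and 3.14 CPM, above ESCs (1.37 and 1.40, and 0.623 and 0.200) and not called against DMSO (9.64 and 10.8, and 4.60 and 4.66). Brdt, a testis bromodomain protein, was the germline gene that rose against both controls (3.71 and 3.45 CPM against 1.12 and 1.0 in ESCs and 1.59 and 1.26 in DMSO), named here after its values were seen.

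**Figure D2:**
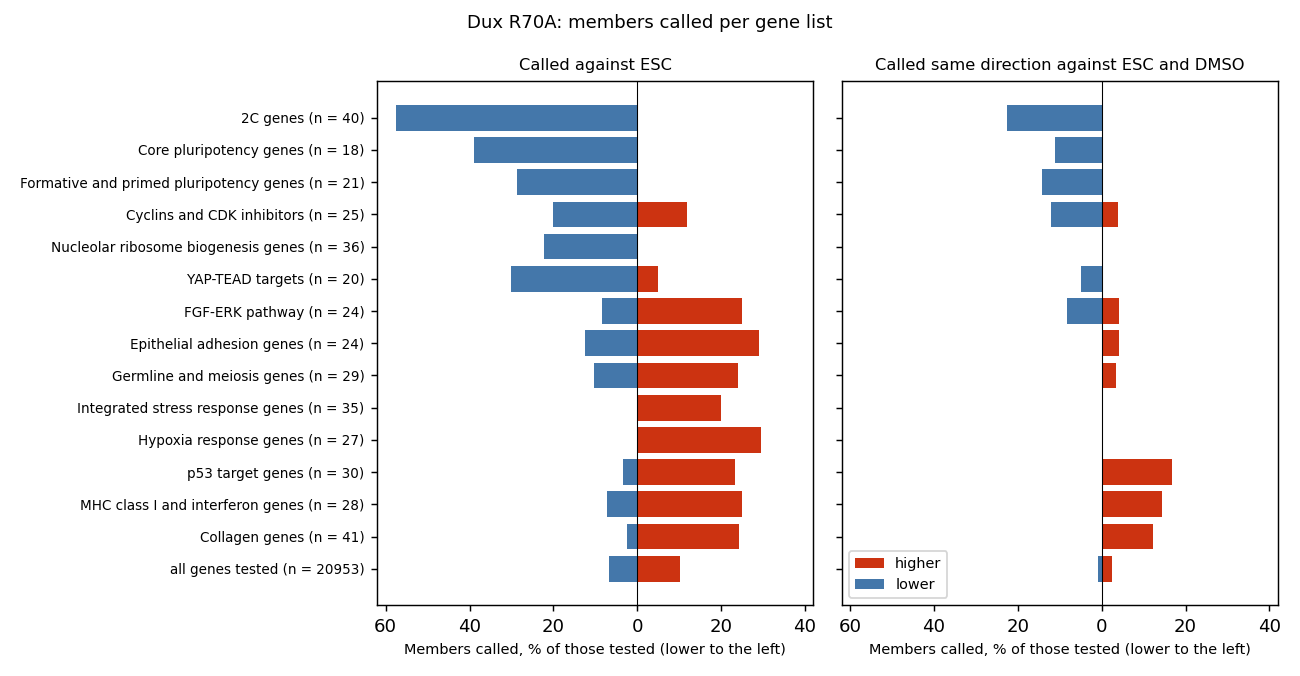
Share of the tested members of 14 gene lists, and of all genes tested, called higher (right) or lower (left) in Dux R70A, against ESCs in the left panel and in the same direction against ESCs and DMSO in the right panel. The 2C list lies furthest to the left in both panels, p53, MHC and collagen genes keep members to the right against both controls, and the hypoxia and integrated stress bars vanish in the right panel.

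Most 2C genes were lower in Dux R70A than in ESCs. Of 40 tested, 23 were lower and none higher than in ESCs, 9 were lower and 1 (Arg2) higher than in DMSO, and the 9 lower against DMSO were lower against both. The lower shares were 57.5% against ESCs and 22.5% against both, beside 6.72% and 0.873% of all genes. The median log2 fold change against ESCs was -3.93 as fitted and -3.14 with levels under 3 counts set to that floor, which left out 11 genes at the floor in both groups. DMSO-treated cells also had 20 of these genes lower than ESCs. Zscan4d was at 0.269 and 0.126 CPM in Dux R70A, 12 and 10.1 in ESCs, 2.27 and 1.37 in DMSO and 1660 and 1707 in Dux OE, so the Dux R70A libraries were the lowest of the 8. It fell by 5.73 ± 0.34 (SE) on the log2 scale against ESCs (edgeR adjusted p = 8.6e-13) and by 3.12 against DMSO (edgeR adjusted p = 2.1e-05). Zscan4c had 3 counts in the Dux R70A libraries together and 184 in those of ESCs, a level 68.2-fold lower (95% counting interval 23 to 334, which like all such intervals here covers counting error only). Usp17lb, a deubiquitinase of the 2C stage, had no counts in Dux R70A and was at least 21.4-fold lower than in ESCs. Against DMSO the bound for Usp17lb was only 1.63-fold, and Zscan4c was 17.7-fold lower (95% counting interval 5.73 to 88.2). In bulk RNA, fewer cells in the 2C-like state and less 2C RNA per cell cannot be told apart. Against Dux OE, 37 of the 40 genes were lower (7.51% of all tested genes were lower in that comparison).

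The Zscan4 copies share reads, so their separate counts are uncertain, and the stretches before their starts show how alike they are. The 250 bases before the starts of Zscan4c (chr7:11005495-11005744, plus strand) and Zscan4d (chr7:11166149-11166398, minus strand; RefSeq, GRCm38.p6) align over 239 bases at 97.1% identity, and the 7 bases that differ are in capitals.
Zscan4c: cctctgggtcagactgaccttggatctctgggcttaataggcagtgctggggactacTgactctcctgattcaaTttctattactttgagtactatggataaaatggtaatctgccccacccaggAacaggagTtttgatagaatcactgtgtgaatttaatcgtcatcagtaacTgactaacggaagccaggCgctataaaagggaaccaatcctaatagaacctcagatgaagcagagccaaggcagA
Zscan4d: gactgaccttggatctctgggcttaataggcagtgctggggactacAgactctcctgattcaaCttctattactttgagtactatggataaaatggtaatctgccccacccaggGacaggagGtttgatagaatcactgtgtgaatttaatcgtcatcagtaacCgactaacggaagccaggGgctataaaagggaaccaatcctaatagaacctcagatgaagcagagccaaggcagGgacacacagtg
Neither holds a form of the DUX motif, TGATT and AATCA with any 1 base between, which was searched on both strands and occurs in 2 of 13364 windows of tested genes (0.015%) and in 0.0304% of all windows.

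Among 26 tested activators and repressors of Dux, 2 were higher (7.69%, beside 10.2% of all genes) and 3 were lower than in ESCs (11.5%, beside 6.72%), shares near those of all genes. The lower genes were Dppa2, Trim28 and Lin28a. Dppa2, an activator of Dux, was at 53.2 and 55.9 CPM in Dux R70A, 157 and 161 in ESCs, 110 and 117 in DMSO and 183 and 175 in Dux OE. It was lower than in each of these groups (log2 fold changes -1.54, -1.06 and -1.71). Trim28, a repressor of endogenous retroviruses and of Dux, was at 1327 and 1117 CPM against 2751 and 2752 in ESCs, with DMSO at 1499 and 1513 CPM and no call there. Dppa2 was the 1 gene of the list lower against both controls. It was under the fold line against DMSO with scaling by library size alone (log2 fold change -0.90), as Trim28 and Lin28a were against ESCs (-0.94 and -0.79), which left 1 gene lower than in ESCs and none lower than in both.

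The cyclin D genes Ccnd1 and Ccnd2 and their kinase gene Cdk6 were lower in Dux R70A than in both controls. Ccnd2, cyclin D2 (chromosome 6, 127125162 to 127152193, minus strand), was at 1.67 and 2.89 CPM in Dux R70A, 43.6 and 40.2 in ESCs, 25.7 and 24.5 in DMSO and 7.29 and 8.72 in Dux OE. It was 18.4-fold lower than in ESCs (log2 fold change -4.22 ± 0.18 SE, edgeR adjusted p = 1.6e-15) and lower than in Dux OE as well (log2 fold change -1.84). Cdk6, the kinase that cyclin D activates, was at 16.8 and 16.6 CPM against 80.0 and 81.0 in ESCs, 37.8 and 37.6 in DMSO and 39.4 and 40.3 in Dux OE. Ccnd1, cyclin D1, was at 59.1 and 52.3 CPM against 156 and 149 in ESCs and 138 and 139 in DMSO, and at 72.9 and 70.5 in Dux OE. Rb1, the retinoblastoma protein that these kinases phosphorylate, was higher than in both controls (50.5 and 64.5 CPM against 22.4 and 21.7 in ESCs and 26.9 and 26.4 in DMSO). Of 25 cyclins, kinases and inhibitors tested, 3 were higher and 5 lower than in ESCs, and 1 was higher and 3 were lower against both controls. Rb1 fell under the fold line against DMSO without Dux R70A replicate 2 (log2 fold change 0.93). These are 12%, 20%, 4% and 12% of the list, beside 10.2%, 6.72%, 2.41% and 0.873% of all genes. Cdk4, at 257 and 232 CPM against 536 and 534 in ESCs, was not called against DMSO, nor against ESCs with scaling by library size alone (log2 fold change -0.89). The CDK inhibitor gene Cdkn1c, at 12.8 and 11.4 CPM against 3.49 and 3.47 in ESCs, was not called against DMSO (12.6 and 15.3) either. Cdkn2a also fell against ESCs alone (1.07 and 1.51 CPM against 6.98 and 6.40; DMSO 1.02 and 1.92). Ccnd1, Rb1, Cdk4 and Cdkn1c were named here for their pathway after their values were seen.

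Myc, a target of LIF and Wnt signals (chromosome 15, 61985391 to 61990374, plus strand), was at 15.4 and 11.4 CPM in Dux R70A, 77.7 and 73.5 in ESCs, 35.8 and 38.5 in DMSO and 16.7 and 16.4 in Dux OE. It was 5.65-fold lower than in ESCs (log2 fold change -2.49 ± 0.14 SE, edgeR adjusted p = 2.0e-13) and 1.46 lower on the log2 scale than in DMSO. No difference from Dux OE was called (log2 fold change -0.30, edgeR adjusted p = 0.12). Gbx2, a LIF-STAT3 target that supports self-renewal, was at 17.7 and 14.8 CPM against 74.7 and 75 in ESCs, 41.5 and 45.5 in DMSO and 18.2 and 16.2 in Dux OE. Id3, a BMP target that blocks bHLH factors, was at 3.98 and 3.33 CPM against 28.2 and 25.9 in ESCs, 13.2 and 15.1 in DMSO and 10.9 and 11.2 in Dux OE. Myc, Gbx2 and Ccnd1 were the 3 of 20 LIF-STAT3 genes lower against both controls (15%, beside 0.873% of all genes). Myc and Ccnd1 are also the 2 counted in the FGF-ERK list. Of the 20, 2 were higher (10%) and 4 lower (20%) than in ESCs, beside 10.2% and 6.72%, with a median log2 fold change of 0.01. Against DMSO none was higher and 4 were lower (20%, beside 2.91%). Of 20 tested genes of the BMP list, 3 were higher (15%) and 1 lower (5%) than in ESCs, beside 10.2% and 6.72% of all genes. Against DMSO 1 was higher (5%) and 2 were lower (10%). Against both controls 1 was higher and 1 lower (5% each, beside 2.41% and 0.873%). In this list, Id2 and the ligand Bmp7 went the other way from Id3 against ESCs. Bmp7 was at 25.7 and 26.7 CPM against 4.55 and 4.33 in ESCs and 13.9 and 17.4 in DMSO, and neither gene was called against DMSO.

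**Figure D3:**
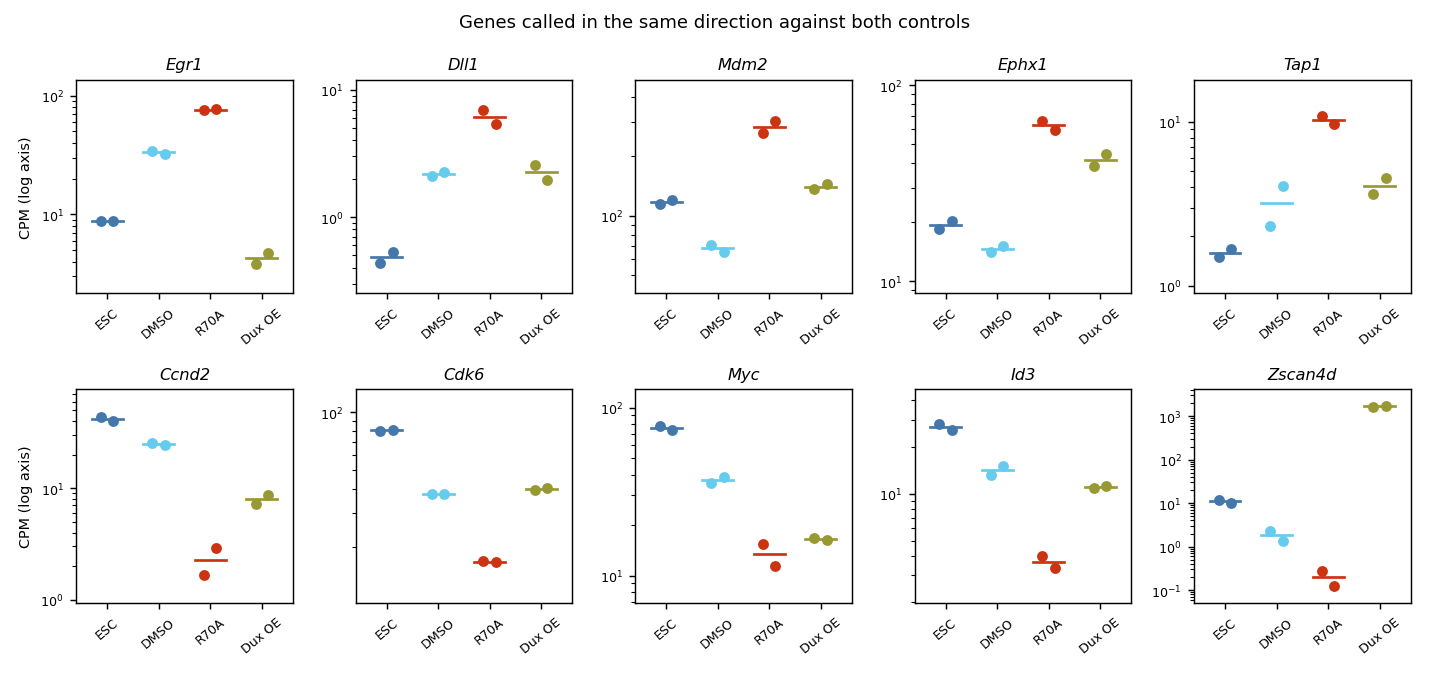
CPM of 10 genes in each library of ESC, DMSO, Dux R70A (R70A) and Dux OE, 2 libraries a group, on log axes of different range; points are libraries and lines the group means. In each panel both Dux R70A points lie above (Egr1, Dll1, Mdm2, Ephx1, Tap1) or below (the other genes) all 4 control points, and Zscan4d stands apart in Dux OE at 1660 and 1707 CPM.

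Of the core pluripotency factors, Pou5f1 and Sox2 did not pass the test and Nanog was lower. Pou5f1 was at 667 and 625 CPM in Dux R70A and 659 and 638 in ESCs, and Sox2 at 404 and 411 against 391 and 377; neither difference passed the test (edgeR adjusted p = 0.99 and 0.54). Nanog was at 373 and 378 CPM against 664 and 677 in ESCs and 888 and 935 in DMSO. It fell by 0.84 on the log2 scale against ESCs, which was significant and under the fold line, and fell by 1.28 against DMSO, which was past it. Of 18 core pluripotency genes, 7 were lower and none higher than in ESCs, 3 were lower than in DMSO, and Dppa2 and Utf1 were lower than in both. The lower shares were 38.9%, 16.7% and 11.1%, beside 6.72%, 2.91% and 0.873% of all genes. With scaling by library size alone 2 were lower than in ESCs, 1 was higher, and none was lower than in both. Utf1, a chromatin factor of ESCs, was at 198 and 157 CPM against 364 and 368 in ESCs and 411 and 433 in DMSO. The log2 fold change of Utf1 against ESCs was -0.88 without Dux R70A replicate 2, under the fold line. Among 22 genes of naive pluripotency, 5 were lower (22.7%) and 1 higher (4.55%) than in ESCs, beside 6.72% and 10.2% of all genes. Against DMSO 1 was lower and 1 higher (4.55% each). Gbx2 was lower against both controls (4.55%, beside 0.873%). Prdm14 was at 21.8 and 15.7 CPM against 49.1 and 49.1 in ESCs and 38.0 and 34.1 in DMSO. Pou5f1, Sox2, Nanog and Utf1 were picked after their values were seen.

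Some genes of formative and primed pluripotency were lower. Of 21 tested, 6 were lower and none higher than in ESCs (median -0.40), 5 were lower and 1 higher than in DMSO, and Zic2, Lef1 and Sox4 were lower than in both. The lower shares were 28.6%, 23.8% and 14.3%, beside 6.72%, 2.91% and 0.873% of all genes. Sox4 was under the fold line against ESCs with scaling by library size alone (log2 fold change -0.87). Zic2, which acts with Otx2 at primed enhancers, was at 1.67 and 0.816 CPM in Dux R70A, 12.8 and 10.9 in ESCs, 28.4 and 31.7 in DMSO and 2.84 and 3.45 in Dux OE. Foxd3 was at 4.08 and 3.64 CPM against 27.0 and 24.9 in ESCs and 7.09 and 8.01 in DMSO, a fall against ESCs alone. Otx2 itself was at 17.8 and 16.3 CPM, under ESCs (27.9 and 28.7) and over DMSO (7.09 and 8.99). Lef1, the Wnt effector, was at 1.45 and 1.19 CPM against 4.55 and 4.27 in ESCs and 6.69 and 7.73 in DMSO. In the Wnt list of 25 genes, 3 were higher (12%) and 4 lower (16%) than in ESCs, beside 10.2% and 6.72% of all genes. Against DMSO 2 were higher (8%) and 1 was lower (4%). Against both controls 1 was called in each direction (4% each, beside 2.41% and 0.873%), Rnf43 higher and Lef1 lower. Rnf43 lost its call against DMSO without Dux R70A replicate 2 (log2 fold change 0.61) or DMSO replicate 1 (0.63), and Otx2 without DMSO replicate 1 (0.92). Rarg, a retinoic acid receptor, was also lower than in both controls, at 80.9 and 74.4 CPM against 201 and 200 in ESCs and 164 and 176 in DMSO. Rarg was under the fold line against DMSO with scaling by library size alone (log2 fold change -0.97). Sox4 and Otx2 were named after their values were seen.

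The remaining genes that fell most against both controls under the fixed rule were Zscan4a, Zscan4e, Eprn, Rbfaos and Lrrn2, out of 73 eligible. Here too the rule required both Dux R70A libraries to lie below all 4 control libraries, so that separation is no result. Eprn, a long noncoding RNA of ESCs, was at 0.967 and 0.691 CPM in Dux R70A, 20.7 and 17.5 in ESCs, 1.76 and 2.52 in DMSO and 5.10 and 4.80 in Dux OE. Rbfaos was at 1.24 and 0.879 CPM against 21.2 and 23.9 in ESCs, 2.33 and 2.14 in DMSO and 0.948 and 0.338 in Dux OE. It is named as the opposite strand of Rbfa, and since no strand setting of the counting is given in the sources used here, reads of the pair cannot be told apart. Rbfa was at 22.7 and 24.8 CPM against 37.0 and 39 in ESCs. For Eprn and Rbfaos the untreated ESCs were the highest of the 4 groups. Against DMSO, the call of Eprn was lost without either Dux R70A replicate (log2 fold changes -1.63 and -1.14) or DMSO replicate 2 (-1.06), and that of Rbfaos without Dux R70A replicate 2 (-0.84) or DMSO replicate 1 (-0.996). The log2 fold change of Rbfaos against DMSO was -0.90 with scaling by library size alone, under the fold line.

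Hypoxia genes and the integrated stress response gave opposite pictures with the 2 controls. Of 27 hypoxia genes, 8 were higher and none lower than in ESCs (median 0.74), but none was higher and 6 were lower than in DMSO (median -0.53), and 17 were higher in DMSO than in ESCs. The share higher than in ESCs was 29.6%, beside 10.2% of all genes, and the share lower than in DMSO 22.2%, beside 2.91%. Under scaling by library size alone, 12 were higher than in ESCs and 3 lower than in DMSO. Bnip3, a mitophagy receptor and HIF target, was at 128 and 118 CPM in Dux R70A, 32.1 and 34.9 in ESCs, 219 and 218 in DMSO and 24.6 and 26.8 in Dux OE. It was 3.68-fold higher than in ESCs (log2 fold change 1.88 ± 0.12 SE, edgeR adjusted p = 4.8e-12) and 0.82 lower on the log2 scale than in DMSO (edgeR adjusted p = 3.1e-06, under the fold line). Vegfa, the angiogenic growth factor, followed the same order, at 86.2 and 86.2 CPM against 25.2 and 27.1 in ESCs, 123 and 119 in DMSO and 24.5 and 23.1 in Dux OE. Bhlhe40, a circadian and hypoxia repressor, was at 106 and 90.4 CPM against 20.4 and 23.9 in ESCs and 150 and 147 in DMSO. Dux R70A thus lay between the controls for these genes, while their Dux OE values were close to those of ESCs, and 11 of the 27 were higher in Dux R70A than in Dux OE (6.11% of all genes tested were).

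In the integrated stress response list of 35 genes, 7 were higher and none lower than in ESCs (median 0.03), none was higher and 6 were lower than in DMSO, and 13 were higher in DMSO than in ESCs. These are 20% higher than in ESCs and 17.1% lower than in DMSO, beside 10.2% and 2.91% of all genes. Under scaling by library size alone, 3 were lower than in DMSO. Ddit3, the CHOP gene, was at 20.6 and 24.4 CPM in Dux R70A, 5.05 and 6.0 in ESCs, 19.3 and 19.3 in DMSO and 11.7 and 13.0 in Dux OE (log2 fold change 2.03 against ESCs). Nupr1, a stress-induced chromatin protein, was at 7.79 and 9.17 CPM against 2.12 and 2.2 in ESCs and 15.4 and 13.8 in DMSO, and Atf3 at 3.87 and 3.70 against 1.25 and 1.27 in ESCs and 6.98 and 6.42 in DMSO. Stc2, a secreted glycoprotein that ATF4 and HIF induce, was at 13.0 and 13.1 CPM, not called against ESCs (15.2 and 14.9) and lower than in DMSO (42 and 40.7), and was chosen after its values were seen. Vldlr, a lipoprotein receptor, was named by the rule first among the 26 genes higher than in ESCs (4.83 and 4.40 CPM against 0.872 and 0.667) and lower than in DMSO (14.9 and 14.4). Flt1, a receptor of VEGF, came next (3.06 and 3.45 CPM against 0.436 and 0.667 in ESCs and 7.66 and 6.85 in DMSO), though with scaling by library size alone its log2 fold change against DMSO was -0.997, under the fold line.

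TGATGCAA, the letters of a composite C/EBP–ATF element that ATF4 binds, occurred on either strand in the 250 bases before the start of 7 of the 30 integrated stress genes with a window (23.3%) and in 0.636% of the windows of tested genes. The windows of Nupr1 (RefSeq, GRCm38.p6, chr7:126625471-126625720, minus strand) and Atf3 (chr1:191183334-191183583, minus strand) are shown because both genes were higher in Dux R70A and in DMSO than in ESCs, with the element, here on the opposite strand, in capitals.
Nupr1: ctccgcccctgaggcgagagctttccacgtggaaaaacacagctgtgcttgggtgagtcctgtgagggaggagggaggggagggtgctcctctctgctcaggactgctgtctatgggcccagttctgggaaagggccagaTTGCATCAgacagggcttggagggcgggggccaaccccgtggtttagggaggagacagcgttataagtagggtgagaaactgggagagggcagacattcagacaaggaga
Atf3: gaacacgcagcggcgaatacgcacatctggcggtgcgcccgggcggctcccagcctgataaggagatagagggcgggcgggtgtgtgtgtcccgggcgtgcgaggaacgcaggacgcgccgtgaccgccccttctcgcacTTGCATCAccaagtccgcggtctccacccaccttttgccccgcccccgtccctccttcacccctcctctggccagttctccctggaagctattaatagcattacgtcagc
Each window holds 1 such element. Over the genes higher in Dux R70A than in ESCs it was found for 0.541% of those with a window and over the lower genes for 0.917%.

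**Figure D4:**
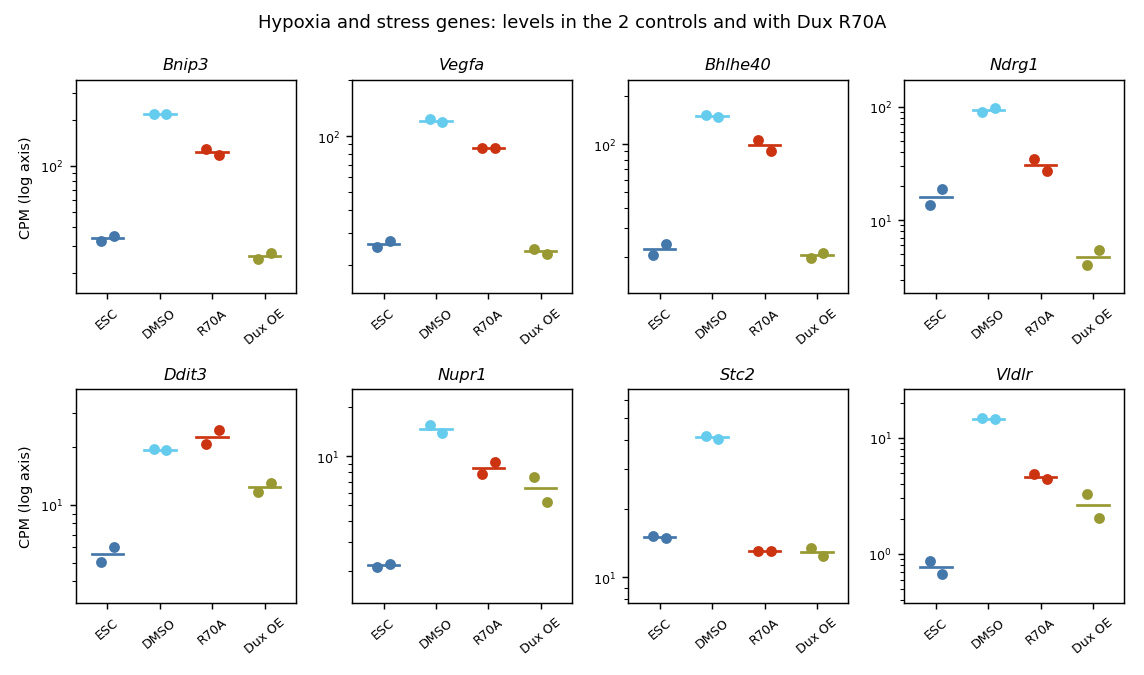
CPM of 8 hypoxia and stress genes in each library of ESC, DMSO, Dux R70A (R70A) and Dux OE, 2 libraries a group, on log axes of different range; points are libraries and lines the group means. Dux R70A lies between ESCs and DMSO for Bnip3, Vegfa, Bhlhe40, Ndrg1, Nupr1 and Vldlr, above both in its mean for Ddit3 and close to ESCs for Stc2.

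Of 36 nucleolar ribosome biogenesis genes, 8 were lower (22.2%, beside 6.72% of all genes) and none higher than in ESCs (median -0.82), and none was called against DMSO (median -0.38). Wdr12, a factor of large subunit maturation, was at 113 and 106 CPM against 281 and 286 in ESCs, 143 and 140 in DMSO and 206 and 205 in Dux OE (log2 fold change -1.37 ± 0.08 SE against ESCs, -0.37 against DMSO). Utp4, of the small subunit processome, was at 197 and 196 CPM against 430 and 424 in ESCs and 344 and 351 in DMSO. Of 85 mitochondrial ribosome and translation genes, 7 were lower and none higher than in ESCs (8.24% lower, near the share of all genes; median -0.51), with 1 higher and 1 lower than in DMSO. Mrpl17 was at 49.0 and 46.0 CPM against 134 and 129 in ESCs and 56.6 and 56.8 in DMSO. Of 18 chaperone genes 2 were higher (11.1%) and 3 lower (16.7%) than in ESCs, beside 10.2% and 6.72% of all genes. The 3 lower were Hsph1, Hspa8 and Hspd1, with Hspa8 at 1636 and 1460 CPM against 4110 and 4062 in ESCs and 2248 and 2298 in DMSO. Against DMSO 1 chaperone gene was higher (5.56%) and 2 were lower (11.1%), beside 6.14% and 2.91%. None was called in the same direction against both controls. Scaled by library size alone, 3 chaperone genes were higher and 2 lower than in ESCs. The splicing factor genes Sf3b4, Sf3a2 and Srsf2 fell against ESCs as 3 of 26 tested (11.5%), Sf3b4 to 99.4 and 83.9 CPM from 259 and 257, and were not called against DMSO (96.3 and 101 CPM for Sf3b4). Srsf2 was at a log2 fold change of -1.01 against ESCs and of -0.99 without ESC replicate 1. With scaling by library size alone, which moved the median of all genes against ESCs from 0.00 to 0.20, the nucleolar genes called were 2, the mitochondrial ribosome genes 3 and the splicing genes 2. Utp4 and Hspd1 were then under the fold line against ESCs (log2 fold changes -0.88 and -0.97). The medians of these lists were -0.58, -0.28 and -0.20 beside the 0.20 of all genes. Cytosolic ribosomal protein genes, with 1 higher and 3 lower of 90, had a median of -0.20 beside 0.00 of all genes, and of 0.03 beside 0.20 under that scaling.

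YAP-TEAD targets, which respond to cell contact and tension, were lower than in ESCs in 6 of 20 cases (30%, beside 6.72% of all genes) and higher in 1. Ccn1 was at 2.63 and 2.51 CPM against 9.28 and 9.998 in ESCs and 2.04 and 2.08 in DMSO, and Ajuba at 57.0 and 53.2 CPM against 184 and 173 in ESCs and 65.6 and 65.1 in DMSO. Against DMSO, 3 of the 20 were higher and 1, Fjx1, was lower, and Fjx1 was the member lower against both. Against ESCs Fjx1 was under the fold line without Dux R70A replicate 2 (log2 fold change -0.91) or ESC replicate 1 (-0.95), and with scaling by library size alone (-0.90), which left 4 of the 20 lower than in ESCs. By the rule, Fgf18, Dusp27, Nanos3 and Msc were named for falls against ESCs that were not called against DMSO. Dusp27 was at 19.2 and 17.5 CPM against 138 and 141 in ESCs and 24.0 and 24.2 in DMSO. Msc, a bHLH repressor, was at 7.95 and 8.48 CPM against 59.0 and 54.5 in ESCs and 11.2 and 9.54 in DMSO. The rises named by the same rule were those of Zc3h6, Gch1, Cdh22 and H2-Q7, with Zc3h6 at 24.9 and 27.3 CPM against 1.18 and 1.87 in ESCs and 22.3 and 22.3 in DMSO. Ly6a, the stem cell antigen Sca-1, and Dglucy, an enzyme of D-glutamate metabolism, were named by the rule as lower than in ESCs and higher than in DMSO. Ly6a was at 0.537 and 1.0 CPM against 9.22 and 9.26 in ESCs and 0 and 0.165 in DMSO (0 and 3 counts). Dglucy was at 1.77 and 2.39 CPM against 23 and 20.1 in ESCs and 0.737 and 0.932 in DMSO. Ly6a lost its call against DMSO without Dux R70A replicate 2 (log2 fold change 2.60) or DMSO replicate 1 (2.15).

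The other lists are set beside 10.2% of all genes tested higher and 6.72% lower than in ESCs, and 6.14% and 2.91% against DMSO. Of 13 mitochondrially encoded genes 1 (7.69%) was lower than in ESCs. This was mt-Nd1, at 3091 and 2999 CPM against 7001 and 7401 in ESCs and 5941 and 5953 in DMSO. Against DMSO 5 of the 13 were lower (38.5%) and none higher. Of 91 nuclear respiratory chain genes 4 were higher (4.4%) and 3 lower (3.3%) than in ESCs, and 1 higher (1.1%) and 2 lower (2.2%) than in DMSO. Of 25 cholesterol synthesis genes 1 was higher than in ESCs (4%) and none was called against DMSO. Of 22 glycolysis genes 1 (Aldoc, 4.55%) was higher than in ESCs and 1 lower than in DMSO (4.55%). Of 20 lipogenesis genes 1 (Fabp5, 5%) was lower than in ESCs, though not with scaling by library size alone (log2 fold change -0.95). None of these 20 was called against DMSO. Of 18 unfolded protein response genes 1 (Ern1, 5.56%) was higher than in ESCs and 1 lower than in DMSO (5.56%). Ern1 was under the fold line without Dux R70A replicate 2 (log2 fold change 0.995) or ESC replicate 1 (0.98). Of 23 NRF2 targets 1 was higher (4.35%) and 2 lower (8.7%) than in ESCs, and 1 was lower than in DMSO (4.35%). Of 15 DNA methylation enzymes 1 was higher (6.67%) and 2 lower (13.3%) than in ESCs, and 1 was lower than in DMSO (6.67%). Of 51 replication-dependent histone genes 1 was higher (1.96%) and 3 lower (5.88%) than in ESCs, and 1 higher (1.96%) and 9 lower (17.6%) than in DMSO. Against Dux OE 26 of the 51 were lower (7.51% of all genes tested were), though poly(A) selection captures few of their transcripts. Lineage lists were mixed. Of 24 primitive endoderm genes 4 were higher (16.7%) and 3 lower (12.5%) than in ESCs. Against DMSO these were also 4 and 3, with 1 higher against both controls. Of 21 trophectoderm genes 1 was higher (4.76%) and 2 lower (9.52%) than in ESCs, and 1 and 3 (14.3%) against DMSO. Of 20 Nodal and mesendoderm genes none was higher and 2 were lower (10%) than in ESCs, and 1 (5%) and 4 (20%) against DMSO. Of 35 Hox genes 2 were higher (5.71%) and 1 lower (2.86%) than in ESCs, and 3 higher (8.57%) and none lower than in DMSO. Of 11 fibroblast markers 2 were higher (18.2%) than in ESCs and 1 lower (9.09%) than in DMSO. Of 32 imprinted genes 5 were higher (15.6%) and 2 lower (6.25%) than in ESCs, and 7 (21.9%) and 4 (12.5%) against DMSO. Of 19 retinoic acid genes 2 were higher (10.5%) and 1 lower (5.26%) than in ESCs, and 2 lower (10.5%) than in DMSO.

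Set directly against Dux OE, which shared dose and time, Dux R70A had 1280 genes higher (6.11%) and 1574 lower (7.51%). Beside the 2C genes, the genes lower than in Dux OE included Dppa2, Ccnd2, Cdk6 and Id3, and those higher included Egr1, Junb, Tap1, Tap2, Neurod1, Dll1 and 11 of the 27 hypoxia genes (1 hypoxia gene was lower and 15 were not called). For Myc, Gbx2 and Ccnd1 the log2 fold changes of Dux R70A against Dux OE were -0.30 ± 0.15, -0.08 ± 0.13 and -0.36 ± 0.10 (SE), and none was past both call lines. Fbxo15, an Oct4 target, was at 103 and 102 CPM in Dux R70A, 209 and 211 in ESCs and 1007 and 989 in Dux OE, named here for this difference after its values were seen.

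Changes in Dux R70A against ESCs were not spread evenly over the chromosomes. Over 12551 genes with a mean of at least 2 CPM, the median log2 fold change of a chromosome ran from -0.21 on chromosome 1 to 0.21 on chromosome 17. It was 0.20 on the X, 0.14 on chromosomes 2 and 6, and -0.18 on chromosome 5. Relative to all genes, the 4 pairs of a Dux R70A and an ESC library, which share libraries, ran from 0.23 to 0.24 on chromosome 17. The pairs ran from -0.14 to -0.09 on chromosome 5 and from -0.02 to 0.06 on chromosome 18. DMSO against ESCs ran from -0.23 on chromosome 1 to 0.45 on chromosome 12, with 0.24 on chromosome 2, 0.26 on 6, 0.23 on 17 and 0.39 on the X, and Dux OE against ESCs ran from -0.11 to 0.01. Dux R70A against DMSO gave another order, from -0.36 on chromosome 12 to 0.19 on chromosome 14. There chromosomes 1 and 17 stood at 0.01 and -0.01, the X at -0.18, chromosomes 2 and 6 at -0.07 and -0.11, and chromosome 5 at -0.02. The H2 genes, Tap1, Tap2, Dll1 and Cldn6 lie on chromosome 17, and the part of this shift in their values was not tested. The 4 genes of the Y chromosome that were looked up, Ddx3y, Eif2s3y, Kdm5d and Uty, had 0 counts in every library of Dux R70A, ESC, DMSO and Dux OE. The change also followed transcript length: by quartile of exon length, from the shortest to the longest, the median log2 fold change against ESCs was -0.21, -0.09, 0.00 and 0.11, and for Dux OE against ESCs -0.05, -0.06, -0.04 and -0.03. The part of length in the values of the lists was not tested.

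**Figure D5:**
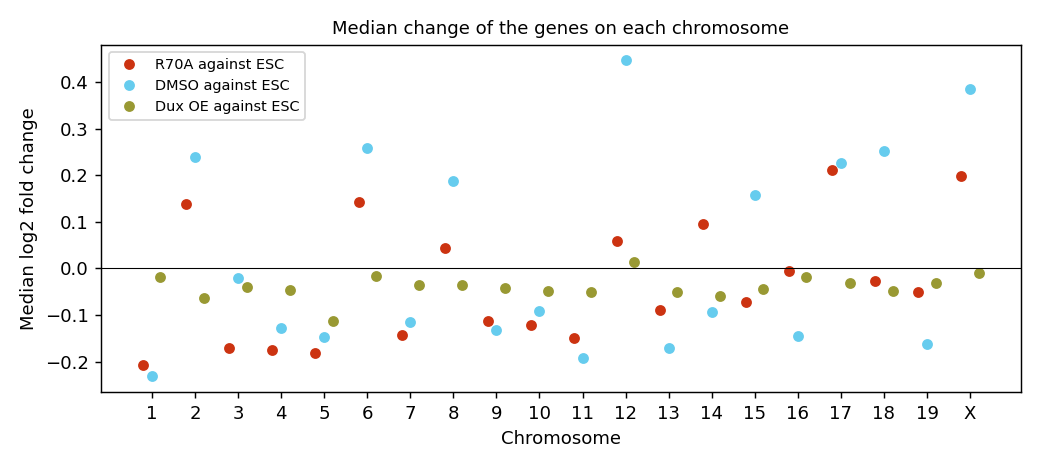
Median log2 fold change of the genes on each chromosome for Dux R70A, DMSO and Dux OE against ESCs, over 12551 genes with a mean of at least 2 CPM. The Dux R70A points range from -0.21 to 0.21 and the DMSO points from -0.23 to 0.45, while the Dux OE points stay between -0.11 and 0.01.

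Promoter letters were counted for both directions of change. Windows with a GC box were found for 65.5% of the 1480 genes with a window that were higher than in ESCs, 43.6% of the 872 that were lower and 58.7% of all 13364 tested. For genes called against both controls the shares were 58.4% of 341 higher and 44.9% of 89 lower. CCGGAAGT, an ETS site, was found for 1.76% of the genes higher than in ESCs and 5.50% of those lower, beside 5.69% of all tested. CACGTG, the E-box that MYC binds, was found for 8.24% and 10.3%, beside 9.42%. These are counts of letters on both strands in the 250 bases before the start, and they name no bound factor.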

How the data were processed

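Poly(A) RNA-seq libraries of mouse R1 ESCs were analysed. The authors deposited a table of raw read counts per gene (55291 genes). The submitters' processing notes name FastQC, Trimmomatic, STAR, featureCounts, DESeq2 and mm10; their roles, versions and strand setting are not given in the sources used here. All 26 libraries (13 groups of 2) entered 1 edgeR quasi-likelihood fit (edgeR 4.0.16, limma 3.58.1, R 4.3.3) with TMM scaling, after filterByExpr had kept 20953 genes, and p-values were adjusted by Benjamini-Hochberg over all of them. Calls needed an adjusted p under 0.05 and a log2 fold change of 1 or more in size. CPM values used TMM-scaled library sizes, and the common biological coefficient of variation was 0.0833. The floor was 3 counts in a library. The scripts were tested on simulated counts.

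Genes were named by a rule: in each direction the 10 largest changes against ESCs called against both controls and 4 called against ESCs alone. These needed a mean of at least 2 CPM and a symbol that is no clone or model name. Their 2 Dux R70A libraries also had to lie clear of all 4 control libraries. Without these conditions, 2 genes a direction called oppositely against the controls were named, and up to 4 called members of each list. Lists with fewer than 2 called gave their 2 most abundant members. The members and lists were chosen with earlier results of these data known. Alternatives were another scaling, no filter, DESeq2 1.42.0, a replicate block, leaving out each replicate, the mean of both controls and the adjusted p alone. Replicate numbers did not pair the samples.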

Additional observations from a re-analysis of the deposited data

How the results depend on the processing

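Each group had 2 libraries, and the Dux R70A pair differed most between replicates (chi-square per degree of freedom 5.13, against 1.81 for ESC and 2.29 for DMSO). Scaling by library size alone gave 868 genes lower than in ESCs, 404 lower than in DMSO, and 791 higher and 103 lower than in both, and the genes it put under the fold line included Vim, Sox4, Utf1 and Fjx1 against ESCs and Dppa2, Rarg and Rbfaos against DMSO. With the adjusted p alone, 4534 genes were higher and 4829 lower than in ESCs, 3263 and 3425 than in DMSO, 3622 and 4481 than in Dux OE, 1579 and 1791 than in both controls, and 4446 and 4695 in DMSO against ESCs, since the fold line was dropped. With the mean of ESC and DMSO as the control, 591 genes were lower; the cause was not tested. Leaving out 1 replicate of any of these groups gave 1747 to 2136 genes higher and 1171 to 1398 lower than in ESCs, 931 to 1268 and 486 to 607 against DMSO, 384 to 493 and 143 to 181 against both; a group left with 1 library was assumed to vary like the others. Without 1 Dux R70A replicate, 1773 or 1734 of the 2143 genes remained called higher and 1051 or 1042 of the 1407 lower. DESeq2 called 1995 genes higher and 1299 lower than in ESCs. The replicate numbers did not deviate together (correlations -0.02, -0.06 and -0.0045), and with the replicate block 2118 genes were higher and 1392 lower than in ESCs. Subtracting chromosome medians, an alternative chosen after seeing the data, kept 2042 of the higher and 1196 of the lower genes.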
